A study of Mus musculus with 12 samples.

Results

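The apolipoprotein genes described here are Apoa1, Apoa2, Apoa4, Apoa5, Apob, Apoc1, Apoc2, Apoc3, Apoc4 and Apoe, which encode the proteins of the A, B, C and E classes that coat plasma lipoproteins. They were taken by gene symbol and are 10 of the 23420 genes counted. All 10 had enough counts to be tested, as had 13693 genes in total. Their RNA was measured in whole mouse liver by RNA sequencing of 12 libraries, which form 6 groups of 2 libraries each. Every animal was C57BL/6 and carried floxed alleles of Gdown1, a protein that binds RNA polymerase II and is encoded by Polr2m. KO livers lost Gdown1 in hepatocytes through Alb-Cre, a recombinase made under the control of the albumin promoter, and FF livers, without Cre, were their controls. Both groups were 7 weeks old and had intact p53. By their labels, DKO livers were p53-null and had lost Gdown1 through Alb-Cre, and p53KO livers were p53-null with Gdown1 kept; both were 8 weeks old. DKO TAM livers were p53-null and carried Alb-CreERT2, a form of Cre that acts once tamoxifen is given. They were taken 24 hours after tamoxifen, as were the p53KO TAM livers, whose genotype label names no Cre. An age is not given for the tamoxifen groups. The comparisons set deletion livers beside their controls with p53, without p53, and 24 hours after tamoxifen. The deletion groups carry a Cre that FF livers lack and that the p53KO TAM label does not name. Effects of Cre itself and of Gdown1 loss therefore cannot be told apart in these comparisons. The 2 DKO libraries are numbered 2 and 3 in their titles, which are used here, and 1 and 2 in their descriptions.

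Apolipoproteins hold lipids in solution in blood, act as ligands for the receptors that clear lipoproteins, and switch the enzymes that work on them on or off. Apob is the structural protein of the triglyceride-rich particles that liver and intestine secrete, and Apoa1 and Apoa2 are the main proteins of high-density lipoprotein (HDL). Apoe is the ligand through which remnants are taken up, while the C apolipoproteins and Apoa5 act chiefly on lipoprotein lipase and on uptake. Hepatocytes make most of these proteins, macrophages also make Apoe, and Apoa4 is typical of the intestine and is made in mouse liver at levels that change with nutrition.

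Library totals ran between 4939408 and 8776369 counts, and a single library held between 138 and 205420 counts of any of these genes. A floor of 3 counts corresponded to 0.254 to 0.678 CPM (counts scaled by library size and by TMM, which sets the typical gene equal between libraries). Polr2m itself fell to 62.1 ± 3.76 CPM in KO livers, against 98.5 ± 2.55 CPM in FF livers, and to 59.0 ± 1.35 CPM in DKO livers, against 95.9 ± 9.64 CPM in p53KO livers (SD, n = 2 libraries each). In DKO TAM livers it stood at 60.3 ± 8.03 CPM, against 77.3 ± 1.99 CPM in p53KO TAM livers, a difference that did not pass (log2 fold change -0.36 ± 0.13, edgeR adjusted p = 0.063). Whole liver also holds cells that keep the floxed alleles. Trp53, the p53 gene, had 8.26 ± 0.186 CPM in DKO and 2.93 ± 0.201 CPM in p53KO livers (log2 fold change 1.48 ± 0.29, edgeR adjusted p = 5e-04), 9.49 ± 0.746 CPM in DKO TAM and 3.88 ± 0.127 CPM in p53KO TAM livers (1.29 ± 0.28, 0.0039), and 19.8 ± 3.81 CPM in KO and 10.5 ± 3.65 CPM in FF livers (0.93 ± 0.24, 0.013). The libraries labelled DKO and DKO TAM lay within the range of the 2 p53-intact FF libraries (7.945 to 13.1 CPM), and p53KO livers were lower than FF livers (-1.81 ± 0.31, 0.0087). The labels do not say which part of Trp53 the null allele lacks, so these counts do not check the p53 genotype. In the KO, FF and tamoxifen groups the titles give each library a further number of its own, which is not explained; the labels do not state that the 2 libraries of a group came from separate animals, and p-values then measure only the spread between these libraries, which may be technical. In bulk tissue, fewer cells of a type and less RNA per cell cannot be told apart.

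Apoa4 and Apoc2 rose, and Apoa1, Apoa2 and Apoc4 fell, in all 3 comparisons. Genes were called at a Benjamini-Hochberg adjusted p under 0.05 from edgeR's quasi-likelihood test over all 13693 genes. Where groups of 2 libraries are said below not to overlap, this is a description and not a test. The share of all genes without overlap was not counted. For KO against FF, 5 of the 10 genes were called, 2 higher and 3 lower, where 14.8% of all genes tested were called (6.92% higher and 7.88% lower). For DKO TAM against p53KO TAM the counts were again 5 called, 2 higher and 3 lower, beside 18.7% of all genes (8.61% higher and 10.1% lower). For DKO against p53KO all 10 were called, 2 higher and 8 lower, beside 51.4% of all genes (25.7% in each direction). The median log2 fold change of the 10 genes was -0.46 in the KO, -1.42 in the DKO and -0.33 in the DKO TAM comparison, with medians over all genes tested of 0.02, 0.01 and 0.01. Of all genes tested, 1.98% were called higher and 3.7% lower in all 3 comparisons, beside 2 and 3 of these 10.

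**Figure D1:**
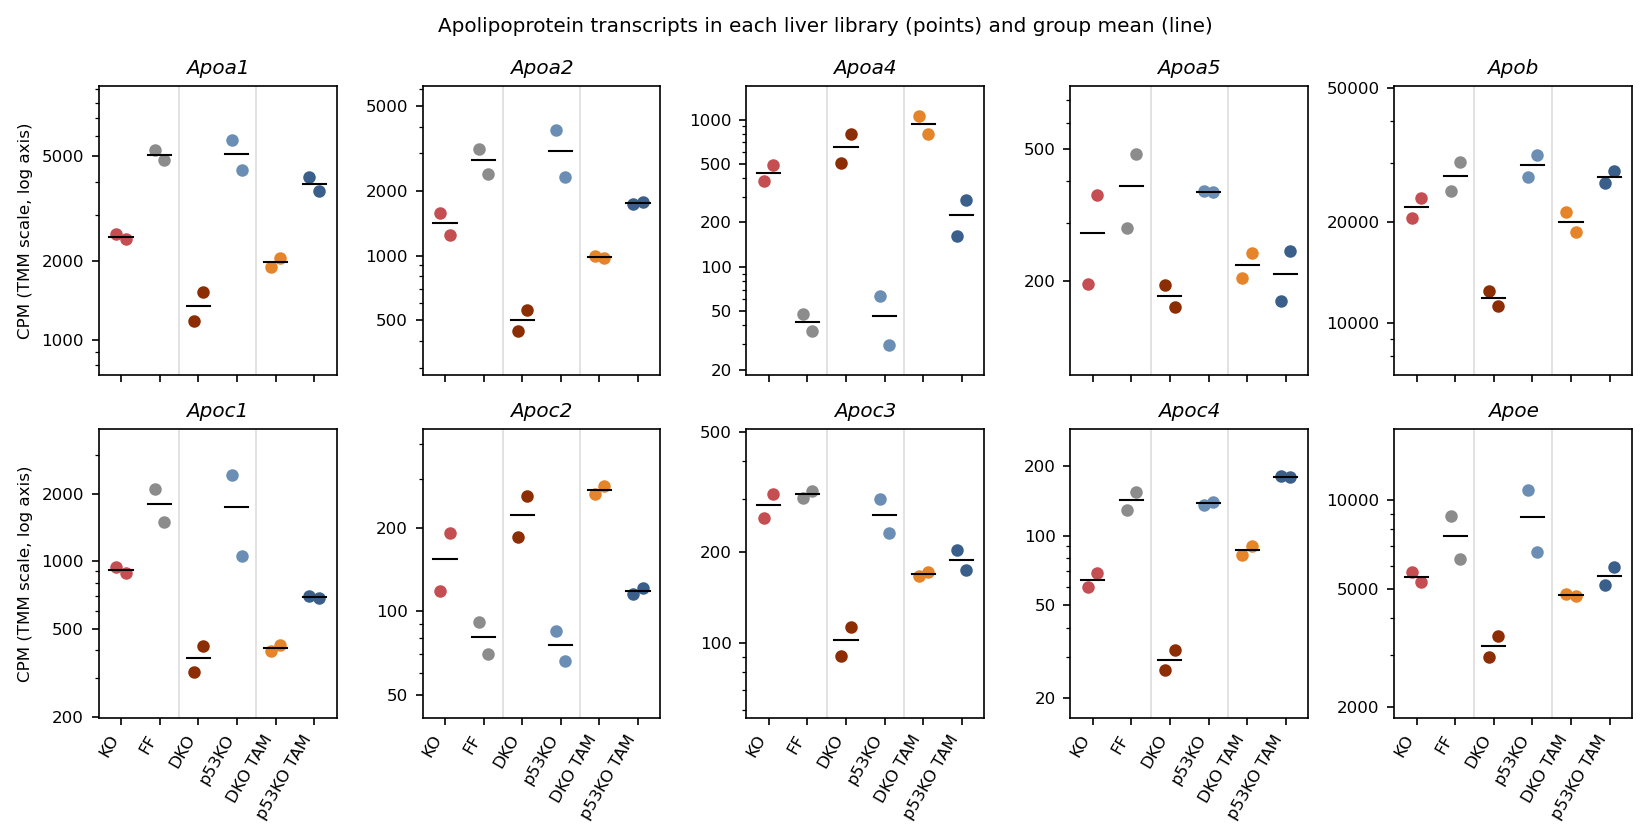
Level of each apolipoprotein gene in CPM (TMM scale, log axis) in every library, with a line at the mean of the 2 libraries of each group; each pair of groups has the deletion on the left and its control on the right. Apoa4 and Apoc2 sit higher in all 6 deletion libraries than in their own controls, and Apoa1, Apoa2 and Apoc4 sit lower.

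**Figure D2:**
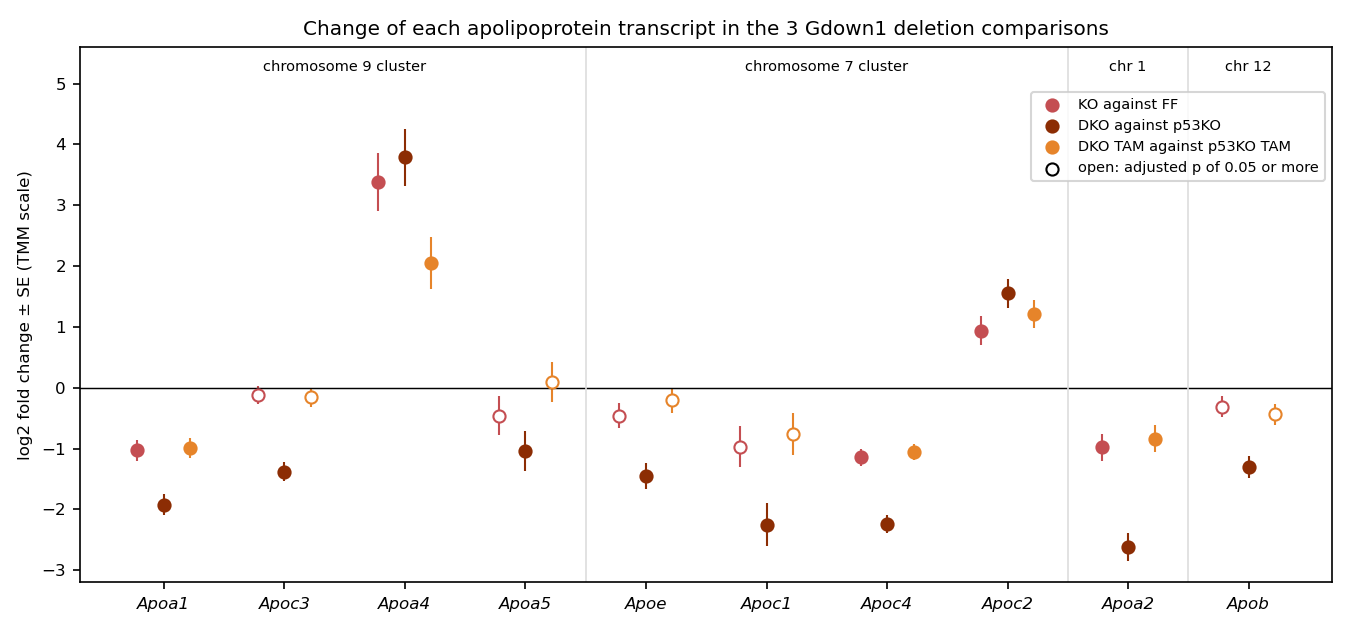
Log2 fold change with its SE for each gene in the 3 comparisons, with genes grouped by chromosome; filled points have an adjusted p under 0.05. The values run between -2.62 for Apoa2 in DKO livers and 3.79 for Apoa4 in DKO livers.

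The genes sit at 4 places in the mouse genome (mm10). On chromosome 9, Apoa1 (46228630 to 46230466, plus strand), Apoc3 (46233051 to 46235297, minus strand), Apoa4 (46240844 to 46243458, plus strand) and Apoa5 (46268608 to 46271919, plus strand) form the Apoa1 cluster. On chromosome 7, all on the minus strand, lie Apoc2 (19671579 to 19676864), Apoc4 (19678084 to 19681460), Apoc1 (19689481 to 19692658) and Apoe (19696244 to 19699166). Apoa2 lies alone on chromosome 1 (171225054 to 171226379, plus strand) and Apob alone on chromosome 12 (7977677 to 8016839, plus strand). Most are short, with 518 to 2321 exonic bases, whereas Apob has 13909. The KO and FF files were counted with no strand option, and the setting is not given in the sources used here for the other 8 files. In GENCODE M21, antisense transcripts overlap Apoa4 by 631 bases (Gm10680) and Apoa5 by 524 bases (Gm47544). Reads of these antisense pairs cannot be told apart in KO and FF libraries and may not be separated in the others. A readthrough gene on the same strand, Gm44805, overlaps Apoc2 by 626 of its 631 exonic bases and Apoc4 by 119 of its 518. Strand cannot separate its reads in any library, and no other counted gene overlaps Apoc2 or Apoc4, so such reads count toward them.

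Upstream sequence is shown for 4 of the 5 genes that changed in the same direction in all 3 comparisons, so that the neighbours Apoa1 and Apoa4, which moved opposite ways, can be read beside Apoa2 and Apoc4. The sequences are the 250 bases before the RefSeq transcript start (GRCm38.p6), 5′ to 3′ on the strand of the gene. Capitals mark matches to letters searched on both strands: TGTTTAC and TGTTTGC, forms of the FOXA site, CAAAGTTCA, a form of the HNF4 site, AGGTCA, a motif of nuclear receptors, and TATAAA, the TATA box.
Apoa4, chr9:46240594-46240843, plus strand: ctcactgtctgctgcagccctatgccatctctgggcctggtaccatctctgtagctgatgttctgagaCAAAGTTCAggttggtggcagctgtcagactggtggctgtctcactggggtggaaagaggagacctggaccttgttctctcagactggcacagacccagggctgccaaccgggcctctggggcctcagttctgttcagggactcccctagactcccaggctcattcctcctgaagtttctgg
Apoa1, chr9:46228380-46228629, plus strand: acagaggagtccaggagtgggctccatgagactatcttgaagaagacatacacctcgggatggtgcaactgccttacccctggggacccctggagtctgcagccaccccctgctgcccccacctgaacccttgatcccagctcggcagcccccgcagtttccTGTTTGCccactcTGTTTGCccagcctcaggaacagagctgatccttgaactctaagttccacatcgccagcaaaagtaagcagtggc
Apoa2, chr1:171224804-171225053, plus strand: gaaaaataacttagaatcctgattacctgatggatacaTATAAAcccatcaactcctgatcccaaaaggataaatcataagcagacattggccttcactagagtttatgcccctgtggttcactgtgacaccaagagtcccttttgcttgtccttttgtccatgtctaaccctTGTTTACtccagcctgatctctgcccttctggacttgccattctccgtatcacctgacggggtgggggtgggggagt
Apoc4, chr7:19681461-19681710, minus strand: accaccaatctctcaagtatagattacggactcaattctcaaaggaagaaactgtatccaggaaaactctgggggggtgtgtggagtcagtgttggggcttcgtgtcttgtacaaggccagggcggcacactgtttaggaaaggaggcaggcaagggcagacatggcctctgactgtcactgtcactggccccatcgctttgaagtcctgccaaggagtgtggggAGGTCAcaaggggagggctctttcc
In Apoa4 the only match was CAAAGTTCA, 182 bases before the start, letters held by 0.39% of the 32851 promoter windows of 300 bases in the RefSeq table. Apoa1 had TGTTTGC at 88 and 75 bases before the start (5.07% of windows), Apoa2 had TGTTTAC 77 bases before it (3.65%) and TATAAA 212 bases before it (13.6%), and Apoc4 had AGGTCA 25 bases before it (16.3%). CAAAGTTCA, TGTTTGC and AGGTCA were added to the search after the sequences had been read. The letters CAAAGTCCA (0.475% of windows) and CAAAGGTCA (0.478%, which contains AGGTCA) were in none of the 8 windows of these genes in the table. GTTAAT, an HNF1 motif, was in 1 of the 8 (7.1% of all windows), as was TTGCNNAA, a C/EBP site (10.8%). Of the longer windows, Apoa5 and Apob also held TATAAA and TGTTTGC. A match of letters is a description of the sequence and does not show binding. Apoc1 and Apoc3 are not in the table. The RefSeq transcript start of Apoc2 lies 1077 bases from the start of the counted gene. Its window reaches into the end of Apoc4 and is not shown.

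Apoa1 encodes the main structural protein of HDL and activates Lcat, the enzyme that esterifies HDL cholesterol. It stood at 2525 and 2427 CPM in KO livers, against 5276 and 4853 CPM in FF livers. Values were 1178 and 1522 CPM in DKO livers, against 5796 and 4424 CPM in p53KO livers. At 24 hours they were 1894 and 2056 CPM in DKO TAM livers, against 4179 and 3686 CPM in p53KO TAM livers. All 6 deletion libraries lay below all 6 control libraries. The log2 fold change was -1.03 ± 0.17 for KO against FF (SE, edgeR adjusted p = 0.00073), -1.92 ± 0.18 for DKO against p53KO (adjusted p = 2e-07) and -0.99 ± 0.17 for DKO TAM against p53KO TAM (adjusted p = 0.00083).

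Apoa2, the second protein of HDL, fell most in DKO livers. It had 1579 and 1248 CPM in KO livers, against 3155 and 2403 CPM in FF livers. In DKO livers it had 445 and 558 CPM, against 3868 and 2315 CPM in p53KO livers, a 6.17-fold fall (log2 fold change -2.62 ± 0.23, edgeR adjusted p = 2.5e-07). In no pair of groups did the libraries overlap, and at 24 hours the values were 994 and 973 CPM in DKO TAM livers, against 1735 and 1782 CPM in p53KO TAM livers. The change was -0.98 ± 0.22 for KO against FF (adjusted p = 0.0072), a call lost without KO replicate 2 (adjusted p = 0.074) or FF replicate 1 (0.072). It was -0.84 ± 0.22 for DKO TAM against p53KO TAM (adjusted p = 0.015), a call lost when any 1 of these 4 libraries was left out (adjusted p between 0.07 and 0.1) and with library totals in place of TMM (0.11).

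Apoa4 encodes a protein of chylomicrons and HDL. It had the largest change of the 10 genes in each comparison, and a rise. It stood at 385 and 488 CPM in KO livers, against 47.7 and 36.4 CPM in FF livers, a 10.4-fold rise. DKO livers had 505 and 792 CPM, against 63.7 and 29.6 CPM in p53KO livers, a 13.8-fold rise. At 24 hours the values were 1056 and 798 CPM in DKO TAM livers, against 162 and 286 CPM in p53KO TAM livers, a 4.15-fold rise. The lowest deletion library was above the highest control library in all 3 comparisons, and the p53KO TAM controls were themselves above the FF and p53KO controls. The log2 fold changes were 3.38 ± 0.47 for KO (edgeR adjusted p = 0.0032), 3.79 ± 0.47 for DKO (adjusted p = 0.00034) and 2.05 ± 0.43 for DKO TAM (adjusted p = 0.016). The last call was lost without DKO TAM replicate 1 (adjusted p = 0.077) or 2 (0.052) or p53KO TAM replicate 1 (0.073).

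Because the intestine is the main site of Apoa4 expression, markers of enterocytes were read beside it. The brush border genes Alpi and Sis and the intestinal regulator Cdx1 had 0 counts in all 12 libraries, and Cdx2 had 4 counts in all. Lct had 28 counts in all, with 0 in 2 libraries, and Muc2 had 10, with 0 in 6 libraries. Of the 10 enterocyte markers, 4 passed the expression filter. Of these, 1 was called higher in KO livers (Anpep), 2 in DKO livers (Vil1 and Slc5a1) and 3 in DKO TAM livers (Vil1, Anpep and Fabp2), and none lower. Over all genes tested, 14.8% were called in KO, 51.4% in DKO and 18.7% in DKO TAM livers, in either direction. The DKO marker count was near that share. Vil1 had 5.76 CPM in DKO and 0.449 CPM in p53KO livers (11.8-fold, edgeR adjusted p = 4.2e-05). Their summed level, mostly that of Anpep and Fabp2, which liver also expresses, was 286 to 321 CPM in KO livers, against 182 to 234 CPM in FF livers. It was 223 to 228 CPM in DKO livers, against 182 to 191 CPM in p53KO livers, and 285 to 320 CPM in DKO TAM livers, against 160 to 187 CPM in p53KO TAM livers.

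Apob is the largest of these transcripts and had the highest counts. It had 20580 and 23630 CPM in KO livers, against 24750 and 30140 CPM in FF livers (log2 fold change -0.31 ± 0.17, edgeR adjusted p = 0.26). In DKO livers it fell to 12510 and 11250 CPM, against 27270 and 31680 CPM in p53KO livers (-1.31 ± 0.18, adjusted p = 1.2e-05). At 24 hours it had 21400 and 18660 CPM in DKO TAM livers, against 26080 and 28310 CPM in p53KO TAM livers (-0.44 ± 0.17, adjusted p = 0.09). The groups of a pair did not overlap in any of the comparisons, and only the DKO difference passed. For DKO TAM the 95% interval of the log2 difference was -0.78 to -0.10. Of 14 alternatives 2 called it, DESeq2 (adjusted p = 0.031) and limma-voom. With library totals the value came to -0.09 in DKO TAM (edgeR adjusted p = 0.68) and -0.06 in KO livers (0.82).

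Apoe encodes a ligand of lipoprotein receptors such as Lrp1. Its level was 5701 and 5298 CPM in KO livers, against 8868 and 6313 CPM in FF livers (log2 fold change -0.46 ± 0.21, edgeR adjusted p = 0.16). DKO livers had 2951 and 3478 CPM, against 10860 and 6689 CPM in p53KO livers, a 2.73-fold fall (-1.45 ± 0.22, adjusted p = 3.7e-05). DKO TAM livers had 4836 and 4755 CPM, against 5176 and 5939 CPM in p53KO TAM livers (-0.21 ± 0.21, adjusted p = 0.53). No pair of groups overlapped, and the difference at 24 hours turned to 0.14 with library totals in place of TMM. Macrophage markers, which mark another liver cell known to make Apoe, summed to 1070 to 1135 CPM in DKO livers, against 481 to 531 CPM in p53KO livers. Of these, 8 of 9 were called higher, and none was at 0 in any library. The sums were 673 to 732 CPM in KO livers, against 529 to 564 CPM in FF livers (2 of 9 higher), and 846 to 857 CPM in DKO TAM livers, against 663 to 714 CPM in p53KO TAM livers (1 of 9 higher). Over all genes tested, 25.7% were called higher in DKO, 6.92% in KO and 8.61% in DKO TAM livers. The marker count in DKO TAM livers was near that share. The part of macrophages in the level of Apoe was not tested.

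Apoc2, the cofactor that lipoprotein lipase needs, rose in all 3 comparisons. It had 118 and 191 CPM in KO livers, against 91.1 and 70.0 CPM in FF livers (log2 fold change 0.94 ± 0.24, edgeR adjusted p = 0.021). In DKO livers it had 185 and 259 CPM, against 85.0 and 66.1 CPM in p53KO livers (1.55 ± 0.24, adjusted p = 2e-04). At 24 hours it had 264 and 283 CPM in DKO TAM livers, against 115 and 121 CPM in p53KO TAM livers (1.21 ± 0.23, adjusted p = 0.0041). Each deletion library was above both of its controls, and KO replicate 1 was the closest to them. Reads of the readthrough gene Gm44805, which covers nearly all exonic bases of Apoc2 on the same strand, cannot be told apart from those of Apoc2. The KO call was lost without KO replicate 2 (0.54, adjusted p = 0.15) or FF replicate 2 (0.76, adjusted p = 0.15) and in a fit of these 4 libraries alone (adjusted p = 0.073).

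Apoc3 inhibits lipoprotein lipase and the uptake of remnants. It had 259 and 312 CPM in KO livers, against 301 and 319 CPM in FF livers, and these groups overlapped (log2 fold change -0.12 ± 0.15, 95% interval -0.42 to 0.18, edgeR adjusted p = 0.66). DKO livers fell to 90.6 and 113 CPM, against 300.3 and 231 CPM in p53KO livers (-1.38 ± 0.16, adjusted p = 1.9e-06). DKO TAM livers had 167 and 171 CPM, against 204 and 174 CPM in p53KO TAM livers (-0.16 ± 0.15, 95% interval -0.46 to 0.14, adjusted p = 0.51). Both DKO libraries were the lowest of the 12. With library totals the KO and DKO TAM values turned to 0.13 and 0.19.

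Apoa5, whose product raises lipolysis of triglyceride-rich particles, varied between the replicates of KO and of FF livers. Its level was 197 and 365 CPM in KO livers, against 290 and 483 CPM in FF livers, and the groups overlapped (log2 fold change -0.46 ± 0.32, edgeR adjusted p = 0.4). It stood at 195 and 168 CPM in DKO livers, against 373 and 372 CPM in p53KO livers (-1.04 ± 0.33, adjusted p = 0.026). It stood at 205 and 244 CPM in DKO TAM livers, against 174 and 247 CPM in p53KO TAM livers, again with overlap (0.09 ± 0.33, adjusted p = 0.88). The DKO call held in 7 of 14 alternatives and was lost without any 1 of its 4 libraries (adjusted p between 0.078 and 0.13), after scaling by upper quartiles (0.063) or by library totals (-0.27, 0.42).

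Apoc1, which hinders receptor uptake of lipoproteins, had 945 and 888 CPM in KO livers, against 2101 and 1497 CPM in FF livers (log2 fold change -0.97 ± 0.34, edgeR adjusted p = 0.091). In DKO livers it fell to 319 and 418 CPM, against 2442 and 1054 CPM in p53KO livers (-2.25 ± 0.35, adjusted p = 0.00055). In DKO TAM livers it had 396 and 420 CPM, against 699 and 685 CPM in p53KO TAM livers (-0.76 ± 0.34, adjusted p = 0.16). No pair of groups overlapped, and the 2 p53KO libraries differed by 1.21 on the log2 scale, the widest gap between replicates of any of the 10 genes. Those 2 libraries also differed by gene length: genes under 1000 exonic bases stood 0.27 higher than genes over 5000 bases in p53KO replicate 1 relative to replicate 2 (difference of median log2 values), where the other groups had gaps of -0.09 to 0.07. Between DKO and p53KO livers, the 967 short genes had a median log2 fold change of -0.32 and the 2489 long genes 0.04. With an offset for length, added after seeing the data, Apoc1 was also called lower in KO (-0.93, adjusted p = 0.019) and DKO TAM livers (-0.75, adjusted p = 0.044). In each of these comparisons 2 of 14 alternatives called it. The other was a fit of the compared libraries alone (edgeR adjusted p = 0.0029 in KO and 0.0025 in DKO TAM livers). With library totals the values were -0.72 (0.17) in KO and -0.41 (0.39) in DKO TAM livers.

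Apoc4, a minor apolipoprotein made by liver, gave the smallest adjusted p of the 10 genes in each comparison. It had 60.1 and 68.8 CPM in KO livers, against 129 and 155 CPM in FF livers (log2 fold change -1.14 ± 0.14, edgeR adjusted p = 3.4e-05). DKO livers had 26.2 and 32.2 CPM, against 136 and 140 CPM in p53KO livers (-2.24 ± 0.14, adjusted p = 4e-09). DKO TAM livers had 82.6 and 90.0 CPM, against 180 and 178 CPM in p53KO TAM livers (-1.05 ± 0.13, adjusted p = 5e-05). All 6 deletion libraries lay below all 6 controls, and none of 14 alternatives changed the call in any of the 3 comparisons.

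The scaling of the libraries bears on how many of these genes count as lower. The 10 genes made up 3.5% ± 0.053 of all counts in KO livers and 3.99% ± 0.058 in FF livers (SD, n = 2). They made up 2.60% ± 0.0283 in DKO livers and 4.06% ± 0.23 in p53KO livers, and 3.26% ± 0.226 in DKO TAM livers and 3.44% ± 0.113 in p53KO TAM livers. Albumin, for comparison, made up 3.20% ± 0.186 in KO and 5.44% ± 0.711 in FF livers, and 1.86% ± 0.0898 in DKO TAM and 6.23% ± 0.0559 in p53KO TAM livers. With library totals in place of TMM, the midpoint of all genes shifted upward on the log2 scale by 0.26 in the KO comparison, 0.77 in the DKO comparison and 0.35 at 24 hours. The 46.7%, 49.9% and 46.1% of called genes that were higher became 83.3%, 90.2% and 88.1%. Upper quartile scaling moved the DKO median by 0.21 and made 65.7% of its called genes higher. Under both scalings Apoa4 and Apoc2 were called higher and Apoa1 and Apoc4 lower in all 3 comparisons.

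**Figure D3:**
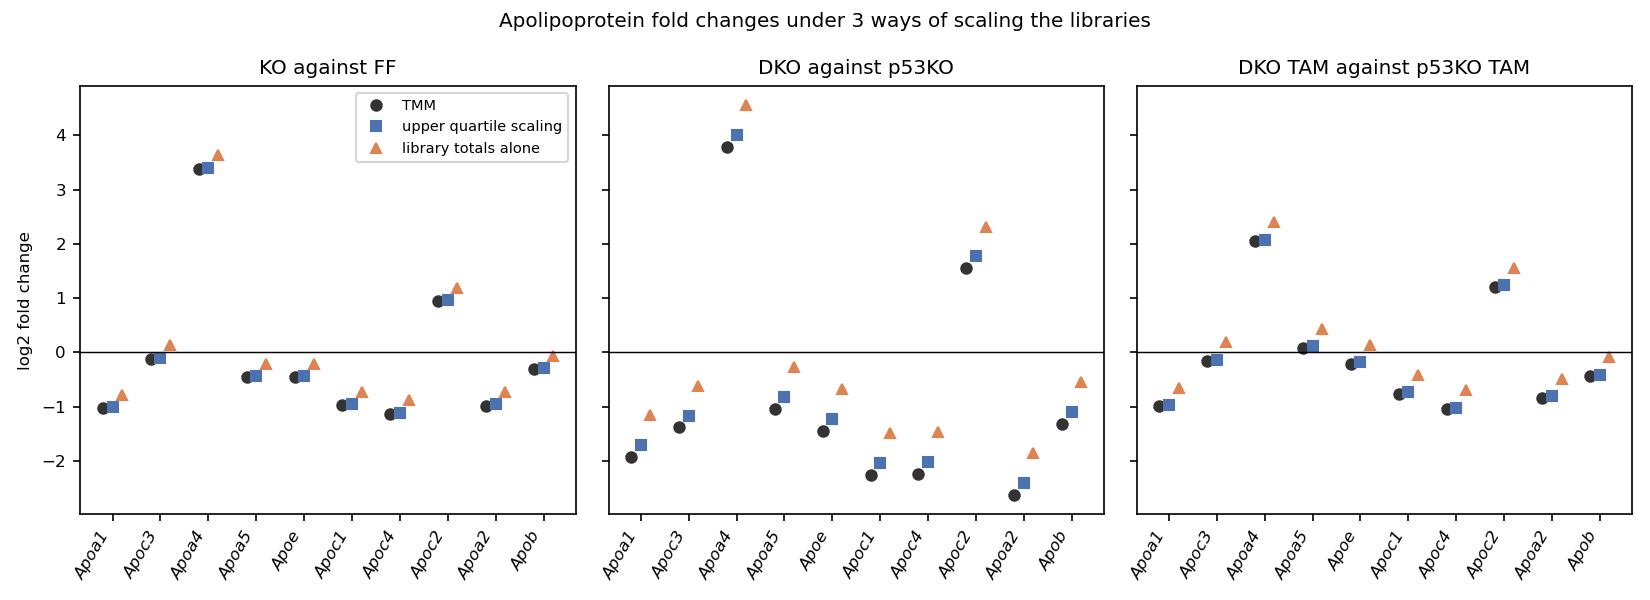
Log2 fold change of each apolipoprotein gene with TMM (circles), upper quartile scaling (squares) and library totals alone (triangles) in each comparison. Library totals shift every gene upward, most in DKO livers, where Apoa5 comes to -0.27; Apoc3 crosses 0 in KO livers, and Apoc3 and Apoe cross it in DKO TAM livers.

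Ratios between 2 of the genes within a library do not depend on scaling. Per kilobase of exon, each Apoa4 count was matched by 11.1 and 8.42 Apoa1 counts in KO livers, against 187 and 225 in FF livers. The ratio was 3.94 and 3.25 in DKO livers, against 154 and 253 in p53KO livers, and 3.03 and 4.36 in DKO TAM livers, against 43.6 and 21.8 in p53KO TAM livers. No groups overlapped, and the highest deletion library, at 11.1, was below the lowest control, at 21.8. Apoc4 and Apoc2 changed order: the ratio of Apoc4 to Apoc2 was 0.621 and 0.44 in KO livers, against 1.72 and 2.7 in FF livers. It was 0.173 and 0.151 in DKO livers, against 1.94 and 2.57 in p53KO livers, and 0.381 and 0.387 in DKO TAM livers, against 1.9 and 1.8 in p53KO TAM livers. Apoc2 thus exceeded Apoc4 per kilobase in all 6 deletion libraries and in none of the 6 controls. The ratio of the inhibitor Apoc3 to the activator Apoc2 was 2.65 and 1.97 in KO livers, against 3.99 and 5.49 in FF livers. It was 0.591 and 0.526 in DKO livers, against 4.25 and 4.22 in p53KO livers, and 0.76 and 0.729 in DKO TAM livers, against 2.13 and 1.74 in p53KO TAM livers.

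In CPM per kilobase, Apoe was the highest of the 10 genes in every group, at a mean of 4396 in KO and 6068 in FF, 2570 in DKO and 7015 in p53KO, and 3833 in DKO TAM and 4443 in p53KO TAM livers. It overlapped the next gene in the 3 control groups and in none of the deletion groups. In FF and p53KO livers Apoa2 and Apoa1 came next, overlapping each other, then Apoc1 and Apob, then Apoc3, Apoc4, Apoa5 and Apoc2, with Apoa4 last at 25.3 and 28.0 CPM per kilobase. In p53KO livers Apoa1 also overlapped Apoc1, and Apoc1 overlapped Apob. In FF livers Apoa5 overlapped Apoc2. Apoa4 came 7th in KO livers, at 262, overlapping Apoc2. It came 6th in DKO livers, at 389, also overlapping Apoc2, and 6th in DKO TAM livers, at 556, above Apoc2 without overlap. Apoc4, 7th in all 3 control groups, overlapped Apoc3 in p53KO TAM livers and was last in DKO livers at 56.4.

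**Figure D4:**
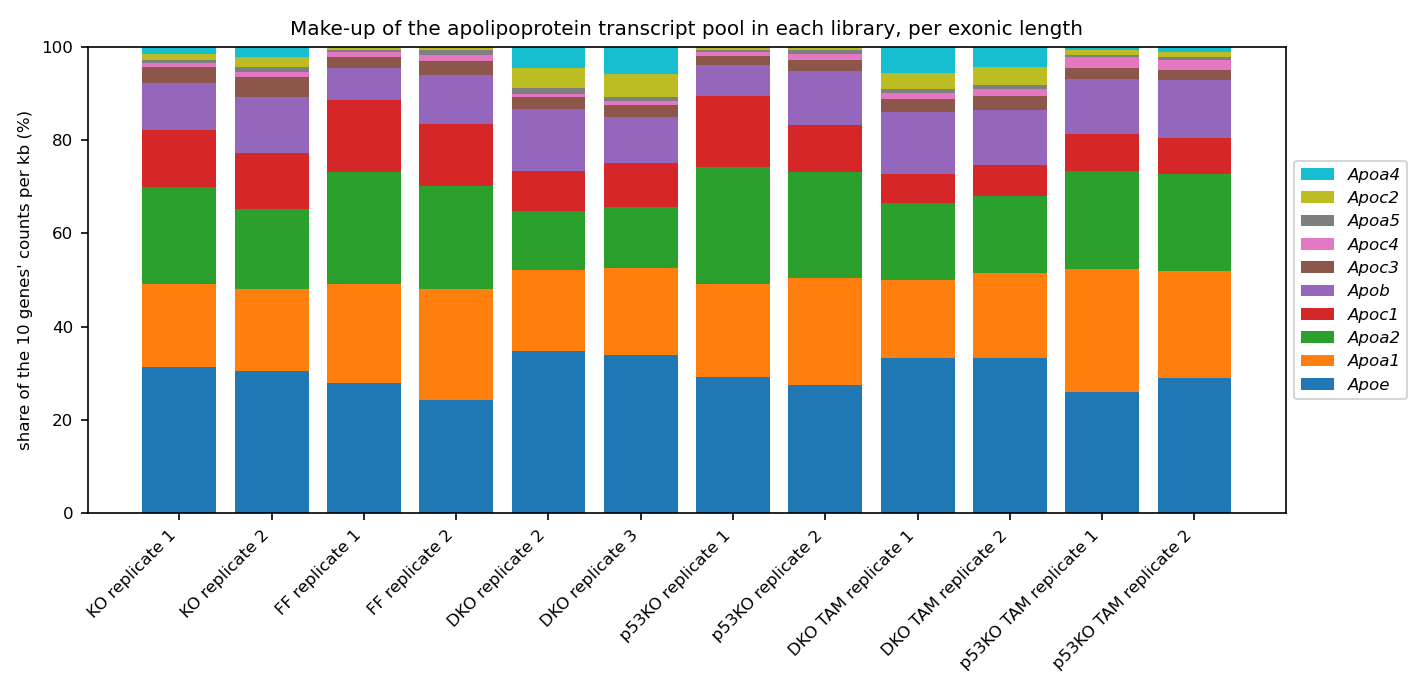
Share of each gene, in percent, of the summed counts per kilobase of the 10 genes in every library. Apoa4 and Apoc2, at the top of each bar, hold 5.12% and 4.65% on average in DKO livers and 0.110% and 0.496% in p53KO livers.

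As a share of the 10 genes' counts per kilobase, Apoa4 held 1.85% ± 0.359 in KO and 0.109% ± 0.00555 in FF livers (SD, n = 2). It held 5.12% ± 0.936 in DKO and 0.110% ± 0.0268 in p53KO livers, and 4.83% ± 0.902 in DKO TAM and 0.829% ± 0.31 in p53KO TAM livers. Apoc2 held 1.73% ± 0.624 in KO and 0.552% ± 0.0261 in FF livers, 4.65% ± 0.496 in DKO and 0.496% ± 0.0582 in p53KO livers, and 3.77% ± 0.227 in DKO TAM and 1.16% ± 0.0181 in p53KO TAM livers. Apoe took a larger share too, at 34.3% ± 0.6 in DKO and 28.4% ± 1.33 in p53KO livers and 33.3% ± 0.0351 in DKO TAM and 27.5% ± 2.2 in p53KO TAM livers. The HDL gene Apoa2 held 12.8% ± 0.351 in DKO and 23.9% ± 1.6 in p53KO livers. These shares are descriptions without a test.

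For 6 of the genes the difference of DKO from p53KO livers was more negative than that of KO from FF livers. The difference between the DKO effect and the KO effect was tested as an interaction, and 6 of 10 genes were called, all lower, beside 22.7% of all genes (9.75% higher and 12.9% lower). They were Apoa2 (-1.65 ± 0.31, edgeR adjusted p = 0.0017), Apoc3 (-1.26 ± 0.22, 8e-04), Apoc4 (-1.10 ± 0.19, 0.00094), Apob (-1.0 ± 0.25, 0.0082), Apoe (-0.98 ± 0.30, 0.027) and Apoa1 (-0.89 ± 0.24, 0.014). Apoc1 had a difference of -1.27 ± 0.47 (adjusted p = 0.086), Apoa5 of -0.57 ± 0.46 (0.42), Apoc2 of 0.61 ± 0.33 (0.21) and Apoa4 of 0.41 ± 0.61 (0.69). The 95% interval of the difference for Apoa4 ran between -0.80 and 1.61. Age differs between these pairs as well, at 7 and 8 weeks, so p53 and age cannot be told apart. With library totals, Apoa1, Apob and Apoe no longer passed (adjusted p = 0.25, 0.11 and 0.26), Apoc2 passed as higher (1.14, 0.021), as it did without KO replicate 2 (1.04, 0.021), and the median of all genes moved up by 0.51. The Apoe call was also lost with upper quartile scaling (0.069) and without KO replicate 1 or 2, FF replicate 2, DKO replicate 2 or p53KO replicate 1 (0.056 to 0.14). That of Apoa1 was lost without DKO replicate 2 (0.073) or p53KO replicate 1 (0.065), and that of Apob without FF replicate 1 (0.053).

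Against the induced deletion, the DKO effect was more negative for 7 of the 10 genes, beside 27.6% of all genes called (13.4% higher and 14.2% lower). The genes called were the 6 above and Apoc1; both differences rest on the same DKO and p53KO libraries. The differences were largest for Apoa2 (-1.79 ± 0.31, edgeR adjusted p = 0.00069), Apoc1 (-1.48 ± 0.47, 0.046), Apoe (-1.24 ± 0.30, 0.0062) and Apoc3 (-1.22 ± 0.22, 0.00071). The Apoc1 call held in 6 of 18 alternatives and was lost without any 1 of the DKO, DKO TAM and p53KO TAM libraries (0.075 to 0.14). That of Apoa1 was lost without DKO replicate 2 (0.051), that of Apob without DKO replicate 3 (0.062) or p53KO TAM replicate 1 (0.07), and those of Apoa1, Apob, Apoc1 and Apoe with library totals (0.12, 0.14, 0.14 and 0.055). For Apoa4 the difference was 1.73 ± 0.60, which did not pass (adjusted p = 0.071) but did with DESeq2 (0.036), with library totals (2.15, 0.033), without p53KO replicate 1 (0.027) or without p53KO TAM replicate 1 (0.043). Albumin had a difference of 0.06 ± 0.24 (adjusted p = 0.89), with log2 fold changes of -2.04 ± 0.18 in DKO and -2.09 ± 0.18 in DKO TAM livers. Cre line, time since deletion, tamoxifen and possibly age differ between these pairs and cannot be told apart.

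With Gdown1 present, p53KO livers against FF livers gave no call among the 10 genes, with edgeR, DESeq2 or limma-voom, and 0 at an unadjusted p under 0.05 in edgeR. Their log2 fold changes ran between -0.22 and 0.21, and 0.862% of all genes were called (0.592% higher and 0.27% lower). Apoa1, for example, stood at 5110 ± 970 CPM in p53KO and 5064 ± 299 CPM in FF livers (SD, n = 2). These groups also differ in age, at 8 and 7 weeks, so p53 and age cannot be told apart here.

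Most genes near the 2 clusters were not called. Over all genes tested, 14.8% were called in KO, 51.4% in DKO and 18.7% in DKO TAM livers. Whether neighbours differ from these shares was not tested. Of 4 tested genes within 100 kb of the Apoa1 cluster that are not apolipoproteins, none was called in KO or DKO TAM livers, and Sik3, a kinase gene beside Apoa1, fell in DKO livers (-0.71 ± 0.13, edgeR adjusted p = 2e-04). Within the cluster Apoa1 and Apoa4 moved opposite ways with Apoc3 between them. Of 9 tested neighbours of the Apoe cluster, 2 rose and 1 fell in KO livers, 3 rose in DKO livers and 1 rose in DKO TAM livers. Tomm40, a mitochondrial import gene next to Apoe, rose in KO (1.20 ± 0.21, adjusted p = 0.00093) and DKO TAM livers (0.99 ± 0.20, 0.0026) and did not pass in DKO livers (0.38 ± 0.20, 0.12). Apoc2 and Apoc4 lie side by side on the same strand and moved opposite ways in all 3 comparisons. Of 12 tested neighbours of Apoa2, 1 rose and 2 fell in KO livers, 2 rose and 5 fell in DKO livers, and 1 rose and 2 fell in DKO TAM livers. Near Apoa2, the nuclear receptor gene Nr1i3 fell in KO (-0.89 ± 0.17, edgeR adjusted p = 0.0024) and DKO livers (-1.77 ± 0.17, 3.9e-07). It had a value of -0.29 ± 0.17 in DKO TAM livers (0.24). Tomm40l, between Nr1i3 and Apoa2, fell in KO (-0.96 ± 0.16, 0.00091) and DKO livers (-0.98 ± 0.17, 0.00012) and was not called in DKO TAM livers (-0.18 ± 0.16, 0.48). Fcer1g, on the other side of Apoa2, rose in DKO livers alone (1.70 ± 0.16, 2.2e-07). The neighbours named here were chosen after their values were seen.

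**Figure D5:**
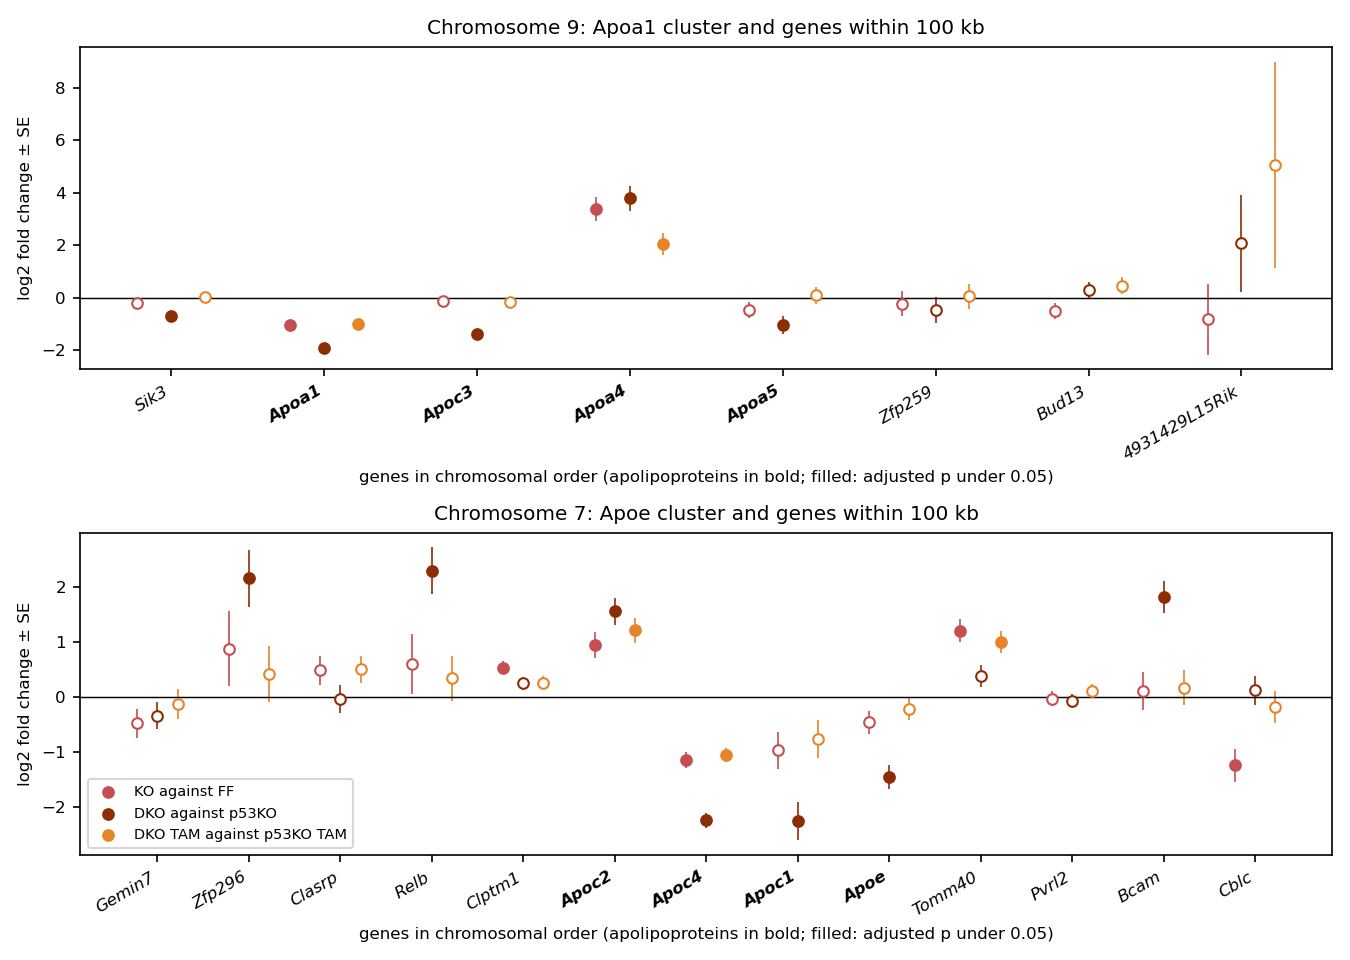
Log2 fold change with its SE for the genes of the Apoa1 and Apoe clusters and the tested genes within 100 kb, in chromosomal order (filled: adjusted p under 0.05). Apoa4 is the only gene with filled points above 0 in the chromosome 9 panel, and Apoc2 lies above Apoc4, Apoc1 and Apoe, of which Apoc1 and Apoe are filled in DKO livers alone; 4931429L15Rik, with wide bars, lies above Apoa4 in DKO TAM livers (5.06 ± 3.94) and was not called.

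Other genes of the lipoprotein pathway were read from 5 lists. Their counts stand beside 14.8% of all genes called in KO, 51.4% in DKO and 18.7% in DKO TAM livers, in either direction. Of 11 tested other apolipoproteins and HDL-bound proteins, 3 fell in KO livers, 8 fell and 1 rose in DKO livers, and 1 fell in DKO TAM livers, with medians of -0.13, -1.26 and -0.28. Saa4, a constitutive serum amyloid A carried on HDL, fell in KO livers to 238 CPM, against 503 CPM in FF livers (log2 fold change -1.08 ± 0.30, edgeR adjusted p = 0.039), and fell by 2.88 in DKO livers. Pon1, an HDL-bound esterase, had 231 CPM in DKO and 806 CPM in p53KO livers (-1.80 ± 0.17, adjusted p = 2.3e-07). Apoh, a phospholipid-binding plasma protein, fell in DKO (-1.64 ± 0.13, 4.9e-08) and DKO TAM livers (-0.68 ± 0.13, 0.0017). Apom, an HDL protein with no call, had 0.17 ± 0.13 in KO, -0.14 ± 0.13 in DKO and 0.33 ± 0.13 in DKO TAM livers.

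Of 22 genes for assembly and secretion of lipoproteins, 3 fell in KO livers, 12 fell and 2 rose in DKO livers and 5 fell in DKO TAM livers. The KO count was near the 14.8% of all genes called. Sort1, a sorting receptor for Apob particles, fell in KO, DKO and DKO TAM livers (-1.42 ± 0.18, edgeR adjusted p = 5.6e-05; -1.57 ± 0.18, 1.6e-06; and -1.40 ± 0.19, 9.1e-05). Dgat2, of triglyceride synthesis, fell in DKO (-1.60 ± 0.13, 5.2e-08) and DKO TAM livers (-0.46 ± 0.13, 0.019), and Tm6sf2, which acts in lipid loading of particles, fell in DKO TAM livers (-1.26 ± 0.20, 0.00034). Mttp, which loads lipid onto Apob and was named after its values were seen, was called only in DKO livers (-0.51 ± 0.14, 0.0057), with 0.08 ± 0.14 in KO and 0.16 ± 0.14 in DKO TAM livers. Apobec1, the enzyme that edits Apob mRNA, had 46.4 CPM in KO and 44.1 CPM in FF livers and was not called in any of the 3.

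Of 16 genes of plasma remodelling, 4 rose and 3 fell in KO livers, 4 rose and 9 fell in DKO livers, and 1 rose and 5 fell in DKO TAM livers. Lpl, the lipoprotein lipase that Apoc2 activates and that adult hepatocytes express little, had 342 CPM in KO and 59.5 CPM in FF livers (2.53 ± 0.21, edgeR adjusted p = 2.9e-06) and 341 CPM in DKO and 83.4 CPM in p53KO livers (2.03 ± 0.20, 1.4e-06). In DKO TAM livers Lpl had 205 CPM, against 180 CPM in p53KO TAM livers (0.19 ± 0.19, 0.55). Lipc, the hepatic lipase, fell in KO (-1.24 ± 0.16, 5.4e-05), DKO (-1.41 ± 0.15, 1.3e-06) and DKO TAM livers (-1.26 ± 0.16, 4.4e-05). Lcat, the enzyme that Apoa1 activates, rose in KO (1.27 ± 0.12, 3.8e-06) and DKO TAM livers (0.63 ± 0.12, 0.0019), and had 154.4 CPM in DKO and 154.6 CPM in p53KO livers (adjusted p = 0.99). Its DKO effect differed from its KO effect by -1.27 ± 0.17 (0.00012).

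Of 16 lipoprotein receptor genes, 1 rose and 1 fell in KO livers, 5 rose and 3 fell in DKO livers, and 1 rose and 3 fell in DKO TAM livers. The KO and DKO counts were near the 14.8% and 51.4% of all genes called in either direction. Sdc1, a heparan sulfate proteoglycan that binds remnants, rose in KO (1.68 ± 0.19, edgeR adjusted p = 2.8e-05) and DKO livers (0.93 ± 0.19, 0.00068). The very low density lipoprotein receptor gene Vldlr rose in DKO livers to 17.0 CPM, against 2.72 CPM in p53KO livers, and fell in DKO TAM livers to 2.0 CPM, against 6.48 CPM in p53KO TAM livers.

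Of 34 regulators of apolipoprotein genes, 9 fell in KO livers, 22 fell and 1 rose in DKO livers, and 2 fell in DKO TAM livers, with medians of -0.22, -0.64 and -0.21. Foxa1 fell in KO (-0.90 ± 0.17, edgeR adjusted p = 0.0022) and DKO livers (-1.54 ± 0.16, 8.8e-07), and Cebpa, the liver C/EBP factor, fell in DKO livers to 58.5 CPM, against 214 CPM in p53KO livers. Srebf1, a driver of lipid synthesis, fell in KO (-1.50 ± 0.26, 0.0033), DKO (-1.56 ± 0.26, 0.00046) and DKO TAM livers (-1.63 ± 0.25, 0.0017). The thyroid hormone receptor Thrb fell in DKO (-1.48 ± 0.14, 2.9e-07) and DKO TAM livers (-0.67 ± 0.14, 0.0031). Hnf4a, the nuclear receptor known to act on many apolipoprotein promoters, had 620 CPM in KO and 684 CPM in FF livers and 683 CPM in DKO TAM and 742 CPM in p53KO TAM livers, without a call, and fell in DKO livers to 446 CPM, against 707 CPM in p53KO livers (-0.66 ± 0.18, 0.0055).

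Some cell type markers also differed between deletion and control livers, not all in the same way. Their counts stand beside 14.8% of all genes called in KO, 51.4% in DKO and 18.7% in DKO TAM livers, in either direction. The 5 hepatocyte markers, led by albumin, summed to 37340 to 44130 CPM in KO livers, against 72700 to 79820 CPM in FF livers, with 3 called lower. Their sum was 21450 to 24530 CPM in DKO livers, against 87250 to 88600 CPM in p53KO livers (5 lower). It was 23820 to 25410 CPM in DKO TAM livers, against 83080 to 84240 CPM in p53KO TAM livers (3 lower). Most of each sum was albumin, with means of 17060 CPM in DKO TAM and 72670 CPM in p53KO TAM livers. In DKO TAM livers Cps1 (-0.47 ± 0.18, edgeR adjusted p = 0.083) and Hnf4a (-0.12 ± 0.18, 0.69) were not called. In KO livers Serpina1a (-0.31 ± 0.18, 0.29) and Hnf4a (-0.14 ± 0.18, 0.66) were not called. Stellate cell and fibroblast markers, 10 of 10 higher in DKO livers, summed there to 1245 to 1346 CPM, against 296 to 299 CPM in p53KO livers. In KO livers 1 of those 10 was higher and in DKO TAM livers 2 were lower, counts near the shares of all genes called. Their part in the apolipoprotein values was not tested.

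The genes whose level was most like that of each apolipoprotein over the 12 libraries were found among 6276 other genes averaging 20 CPM or more, by Pearson's r of log2 CPM. They were Tcea3 for Apoa1 (r = 0.986), Pcyt2 for Apoa2 (0.981), Arhgef7 for Apoa4 (0.982), Ak3 for Apob (0.994), Asgr1 for Apoc4 (0.993) and Upf3b for Apoc1 (0.972). For Apoc3 and Apoe the nearest were Atp5l (0.976) and Atp5h (0.960), both of the mitochondrial ATP synthase, and for Apoa5 it was Rarres1 (0.902). Apoc2 was nearest to Vsig4 (0.941), a receptor of Kupffer cells. Among the 10 genes themselves, Apoa4 and Apoc2 had r = 0.95, Apoa1 and Apoa2 0.97, and Apoa1 and Apoa4 -0.86. With group means removed, these values were 0.67, 0.81 and 0.51, the last of opposite sign. Such values rest on 12 libraries whose groups differ in many genes, and are descriptions only.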

How the data were processed

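Whole liver RNA was made into libraries with a stranded total RNA kit, per the labels' protocols. The submitters' processing notes name CASAVA 1.82, HISAT2, featureCounts and the mm10 build. The values the authors deposited are raw counts of reads per gene, 1 file per library. Per the file headers, 4 of the 12 files (the KO and FF libraries) were counted with featureCounts 1.6.4 over exons by gene with no strand option, and the other 8 have no program line. All 12 libraries were used.

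The fit used edgeR 4.0.16 (R 4.3.3) with filterByExpr at a minimum count of 10, TMM scaling, 1 model of 6 group means over all 12 libraries and robust quasi-likelihood F tests. It left 6 residual degrees of freedom and had a common BCV of 0.124. Adjusted p-values (Benjamini-Hochberg over 13693 genes) come from this fit. SE was taken as the fold change on the log2 scale over the root of F. CPM values use TMM, and CPM per kilobase uses the exonic length in the files. Intervals are 95%. Counting floors cover counting error only.

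The members, lists and tests were chosen with earlier results of these data known. From each list, up to 4 called genes with the smallest p could be named per comparison, and any other list gene was named after its values were seen. Checks of cell type used marker lists for hepatocytes, macrophages, stellate cells and fibroblasts, endothelium, bile ducts and enterocytes. Endothelial markers had 1 of 8 called higher in KO livers, 2 higher and 2 lower in DKO livers and 3 lower in DKO TAM livers. Of 6 tested bile duct markers 0, 5 and 1 were higher and none lower. Over all genes, 14.8%, 51.4% and 18.7% were called in these comparisons, in either direction. The endothelial counts in KO and DKO livers and the bile duct count in DKO TAM livers were near these shares.

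Promoter sequences come from RefSeq (GRCm38.p6), where 8 of the 10 genes matched. Other scalings (RLE, upper quartile, library totals), a looser and a stricter filter on low counts, DESeq2 1.42.0 and limma-voom (limma 3.58.1) were tried as alternatives. So were a fit of the compared libraries alone, a block for the replicate number, leaving out each library in turn, a threshold of 0.01 and, added after seeing the data, an offset for gene length. The fit was tested on simulated data. Some genes of the lists are included in the counts and are not reported here singly.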

Additional observations from a re-analysis of the deposited data

Results flagged for a closer look

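The DKO effect, against p53KO livers, differed from the KO effect, against FF livers, for 6 of the genes. The difference itself was tested (edgeR interaction, all more negative in DKO). The log2 differences were -1.65 for Apoa2, -1.26 for Apoc3, -1.10 for Apoc4, -1.0 for Apob, -0.98 for Apoe and -0.89 for Apoa1. In the same fit 22.7% of all genes differed.

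The DKO effect also differed from the DKO TAM effect, taken 24 hours after tamoxifen, for 7 of the genes. The log2 differences were -1.79 for Apoa2, -1.48 for Apoc1, -1.24 for Apoe, -1.22 for Apoc3, -1.18 for Apoc4, -0.93 for Apoa1 and -0.87 for Apob, beside 27.6% of all genes. Both sets of differences share the DKO and p53KO libraries. Apoa4 and Apoc2, the genes that rose, were in neither set: their differences were 0.41 and 0.61 against KO, and 1.73 and 0.34 against DKO TAM, without a call. With library totals, Apoc2 was called against KO (1.14, edgeR adjusted p = 0.021) and Apoa4 against DKO TAM (2.15, 0.033), and Apoc2 also without KO replicate 2 (1.04, 0.021).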

How the results depend on the processing

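No called value changed direction under any alternative, and 841 of 910 single values kept their side of the threshold, with 52 calls lost and 17 gained. For DKO TAM against p53KO TAM, 3 of the 5 called genes passed at an adjusted p under 0.01. With library totals alone, 4 genes in place of 7 differed between the DKO and DKO TAM effects. Leaving out 1 library at a time gave 3 to 5 called genes for KO against FF, 9 for DKO against p53KO each time, 3 to 4 for DKO TAM against p53KO TAM, 4 to 7 for DKO minus KO, 5 to 8 for DKO minus DKO TAM and 0 for p53KO against FF. A group left with 1 library was assumed to vary like the others.

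Over all genes, libraries with the same number in their descriptions did not deviate together (r = 0.11 for KO and FF, -0.07 for DKO and p53KO, -0.01 for the tamoxifen groups). With 2 libraries in each group, such a value cannot settle whether the numbers mark pairs, and the labels do not say. With the replicate number as a block, 5, 10 and 4 genes were called in the 3 comparisons and 6 and 7 for the 2 differences; Apoc2 in KO (0.91, adjusted p = 0.097) and Apoa4 in DKO TAM livers (2.09, 0.1) no longer passed, and Apoa5 in KO livers did (-0.48, 0.03).

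Over all genes, KO against FF gave 2026 calls, 3294 with library totals, 960 at 0.01 and 1087 to 1285 with 1 library left out. DKO TAM against p53KO TAM gave 2559, 4932 with library totals, 1201 at 0.01, 1438 without DKO TAM replicate 2, and 1188 or 1456 without p53KO TAM replicate 1 or 2. The DKO minus KO difference gave 3107, 1545 at 0.01, 1970 without FF replicate 1 and 2034 without DKO replicate 3, and DKO minus DKO TAM 3782 and 2069 at 0.01. For these differences 43% and 48.4% of calls were higher, against 63.2% and 66.9% after scaling by upper quartiles and 87.8% and 83.5% after scaling by totals. For p53KO against FF 118 genes were called, 190 without a filter, 182 with DESeq2, 37 at 0.01 and 30 to 62 without FF replicate 1, p53KO replicate 1 or p53KO replicate 2. The causes were not tested. Each of the 10 genes had at least 138 counts in every library.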
